A study of Homo sapiens with 6 samples.

Results

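The genes described are the 123 antisense and bidirectional promoter long noncoding RNAs (lncRNAs) that were expressed in BaF3-T315I cells, out of 22413 genes listed. They were selected on their annotated biotype, antisense or bidirectional promoter lncRNA, and on a mean of at least 1 FPKM over the 6 samples. FPKM is the number of sequenced fragments on a gene scaled to the length of that gene and to library size. The level therefore chose the members and is described without a test. The difference between control and I13 was not itself a criterion, but a member could reach the level through 1 group alone. Of the 123 members, 113 are antisense and 10 are bidirectional promoter lncRNAs.

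An antisense lncRNA is transcribed from the strand opposite to a gene and overlaps it, and a bidirectional promoter lncRNA starts near the promoter of a neighbouring gene and runs in the opposite direction. Many of both kinds arise because active mammalian promoters fire in both directions. Most such transcripts are ended early and are degraded in the nucleus, so that those found as stable polyadenylated RNA are usually scarce. Some act on the gene beside them and others have no known function, and for most members named below by a Gm, AC, CT or Rik symbol no function is known.

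Parental BaF3 is a mouse pro-B cell line that needs interleukin 3. BaF3-T315I is that line stably transfected with BCR-ABL carrying the T315I mutation, the kinase change that makes chronic myeloid leukemia resistant to imatinib. All 6 samples carry this transgene. The culture medium that the study describes for its cells names no interleukin 3. The 3 control samples are labelled only as control, with no vehicle or time given, and the 3 I13 samples had received I13, an inhibitor of histone deacetylases derived from indole-3-butyric acid, at 1.1 µM for 48 h. Both groups come from 1 cell line, and although the study describes its results in general as coming from independent experiments, whether the sequenced replicates were separate cultures is not stated, so p-values measure only the spread between these samples. The libraries were made from polyadenylated RNA with a stranded kit, but whether strand was used in counting is not stated. Reads of an antisense lncRNA and of the gene it overlaps therefore cannot be told apart, and every level below has this limit.

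The library totals ranged from 16762119 to 17722950 fragments, of which 99.44% to 99.47% fell on the listed genes. Among the markers of the line, the interleukin 3 receptor subunits Csf2rb and Csf2rb2 were abundant, and the summed level of the 9 markers analysed was 472 to 928 FPKM in the controls and 951 to 1700 FPKM after I13. Of the B-lineage markers, Cd79a was at 14.1 to 27.5 FPKM and Cd79b at 3.57 to 6.94 FPKM, while the pro-B markers Vpreb1, Igll1 and Il7r were at or near 0 in all samples. Of 7 markers of other cell types only the hemoglobin gene Hba-a1 had a mean of at least 1 FPKM, and their sum was 0.804 to 1.39 FPKM in the controls and 2.5 to 6.11 FPKM after I13. The part of these shifts in the results below was not tested. I13 replicate 3 read low for the members, as set out further on, and control and I13 samples of the same replicate number deviated together.

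The members were scarce. Their median level was 2.06 FPKM, against 10.2 FPKM for the 9361 protein-coding genes at or above 1 FPKM, and together they made up 0.108% of the summed FPKM. At least 2 FPKM was reached by 62 members, at least 3 FPKM by 33, at least 10 FPKM by 4 and at least 20 FPKM by 2. All 6 samples were at or above 1 FPKM for 72 members, and no member had a sample at 0. The control mean was under 1 FPKM for 10 members and the I13 mean for 8, so these reached the level through the other group alone. Among the 8 are Gm12279, Zfp335os and Sp3os, with I13 means of 0.525, 0.879 and 0.65 FPKM. Among the 10 is Gm44941, with a control mean of 0.903 FPKM. The annotated rows that fell below the level numbered 1161, so that the members were 9.37% of the 1206 antisense rows and 12.8% of the 78 bidirectional promoter rows.

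These levels rest on few fragments. The members were 268 to 6498 bases long, with a median of 885 bases, and the 6 libraries together held 43 to 12225 fragments of each, with a median of 208. For 24 members the 6 libraries held under 100 fragments. The median standard error of the log2 fold change was 0.34 in these 24 members, 0.26 in the 71 members with 104 to 395 fragments and 0.18 in the 28 members with 408 or more. The median absolute log2 fold change was 0.57, 0.33 and 0.21 in the same bins, so larger differences were read where precision was lowest.

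Just inside the level lay Gm44777 at 1.00 FPKM, Gm38155 at 1.02 FPKM and Sp3os at 1.03 FPKM. Just outside it lay Gm37305 at 0.990 FPKM, Gm10371 at 0.986 FPKM and Dlx1as at 0.967 FPKM. Gm10371 read 1.60, 1.97 and 1.37 FPKM in the controls and 0.282, 0.296 and 0.405 FPKM after I13, so a gene with a wide gap between the groups was left out by a small margin of level. The antisense lncRNA Kcnq1ot1, which silences imprinted genes from the paternal chromosome, also stayed below the level at 0.424 FPKM. Its 84395 bases held 3744 fragments, more than most members. Tsix, the antisense partner of Xist, was at 0.00155 FPKM.

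The 4 most abundant members stood well above the rest. Gm17201 read 32.1, 36.1 and 29.5 FPKM in control replicates 1, 2 and 3, and 30.7, 28.1 and 30.0 FPKM in I13 replicates 1, 2 and 3, the order used for all values below. AC121965.1, a bidirectional promoter lncRNA, read 26.1, 32.4 and 27.7 FPKM in the controls and 30.6, 32.5 and 33.3 FPKM after I13. The groups overlapped for both, and the log2 fold changes, I13 minus control, were -0.13 (standard error, SE, 0.10) for Gm17201 and 0.17 (SE 0.11) for AC121965.1. Brip1os, antisense to the DNA helicase gene Brip1, read 15.4, 15.7 and 17.9 FPKM in the controls and 18.1, 20.3 and 20.3 FPKM after I13. Every I13 value of Brip1os lay above every control value, but by little, with a log2 fold change of 0.26 (SE 0.10, limma adjusted p = 0.240). CT030173.1, also a bidirectional promoter lncRNA, read 12.2, 11.6 and 15.8 FPKM in the controls and 14.5, 16.8 and 12.9 FPKM after I13, and its groups overlapped.

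Of the next 6 by level, 5 had groups that overlapped. Gm20400, with a mean of 9.20 FPKM, differed far more between replicate numbers than between groups and is described with those members below. AC112265.1 read 7.50, 8.61 and 9.19 FPKM in the controls and 8.14, 7.25 and 10.2 FPKM after I13, a log2 fold change of 0.01 (SE 0.15). Gm42747, 4930570N18Rik and Gm44686 had means of 7.51, 7.38 and 5.80 FPKM and log2 fold changes of -0.19, -0.05 and 0.13. These estimates were smaller than their standard errors of 0.23, 0.29 and 0.15. The exception among the 6 was 2810001G20Rik, which was lower after I13.

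**Figure D1:**
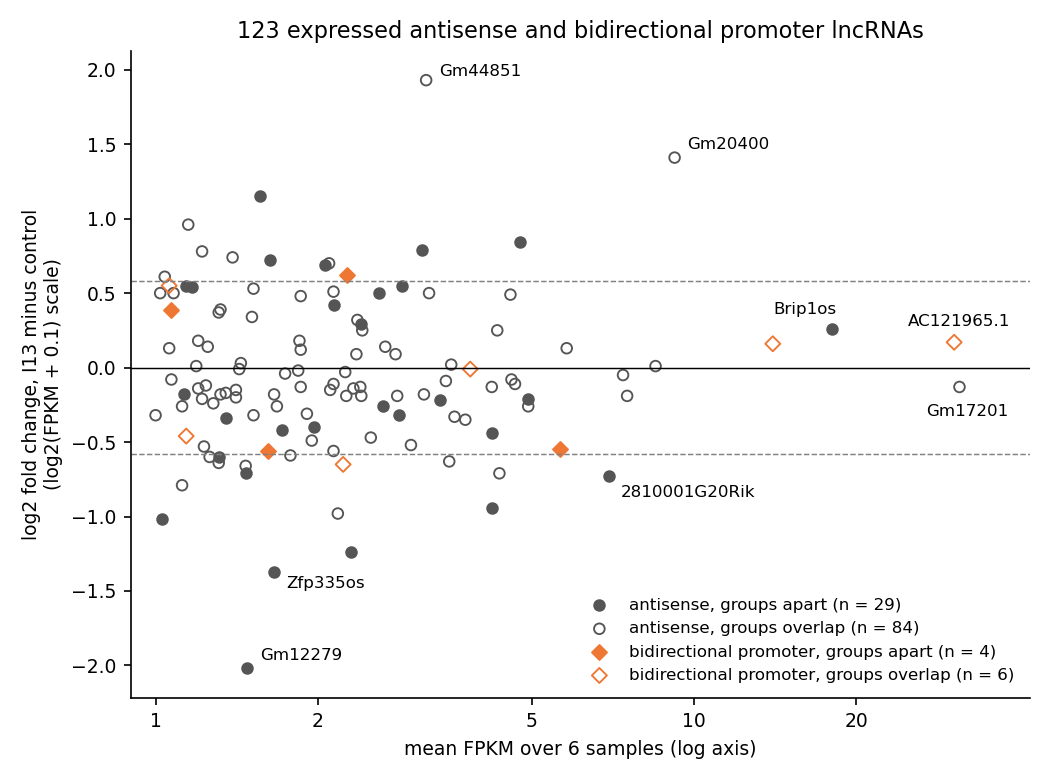
Log2 fold change (I13 minus control, on the log2(FPKM + 0.1) scale) of each of the 123 members against its mean FPKM on a log axis. Filled symbols are members whose control and I13 values do not overlap, dashed lines mark log2 fold changes of 0.58 and -0.58, and the 4 members above 10 FPKM lie near 0 while the widest differences, from -2.02 to 1.93, are among members of lower level.

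The question put to the members was whether I13 changed their levels. In the limma fit on log2(FPKM + 0.1) over the 12163 genes with a mean of at least 0.5 FPKM, calls required both an adjusted p below 0.05 and a log2 fold change of 0.58 or more in size. No member was called, with 0 elevated and 0 decreased, where 5 genes or 0.0411% of all genes tested were called in either direction. The lowest adjusted p of a member was 0.086, that of Gm12279. At an unadjusted p below 0.05, 7 members (5.69%) were higher and 11 (8.94%) lower after I13, against 7.79% and 10.8% of all genes tested. The voom fit on recovered fragments without the replicate number also called 0 members.

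Both groups carry the replicate numbers 1, 2 and 3, by which their samples deviated together, and entering that number as a block in the limma fit gave calls. The blocked fit called 1 member elevated, Gm44851, where 1.36% of all genes tested were called elevated, and 2 members decreased, Gm12279 and 2810001G20Rik, where 0.526% were called decreased. Voom on recovered fragments with the block called 2 members elevated, Gm44851 and Gm20400, against 3.08% of all genes tested. It called 3 decreased, Gm12279, Zfp335os and 2810001G20Rik, against 1.05%. With both samples of any 1 replicate number left out, the blocked limma fit called 0 members, and the adjusted p of the 3 was then 0.0762 to 0.291. Their log2 fold changes in these smaller fits were -2.28 to -1.73 for Gm12279, -0.82 to -0.63 for 2810001G20Rik and 1.49 to 2.17 for Gm44851, each of the same sign as with all samples.

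Gm12279 (ENSMUSG00000087120) had the largest decrease. It read 2.49, 1.93 and 2.90 FPKM in the controls and 0.579, 0.609 and 0.389 FPKM after I13. All 3 controls lay far above all 3 I13 samples, and the control mean was 4.64-fold the I13 mean, although the lncRNA is 294 bases long and these values rest on 38 fragments in the controls and 8 after I13. The log2 fold change was -2.02 (SE 0.26, limma adjusted p = 0.0860, blocked 0.0384).

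2810001G20Rik (ENSMUSG00000087497) was the most abundant member called by the blocked limma fit. It read 10.1, 8.10 and 7.78 FPKM in the controls and 6.17, 5.47 and 4.0 FPKM after I13, on 485 and 286 fragments. The highest I13 value lay below the lowest control value, and within each group replicate 1 was the highest and replicate 3 the lowest. The log2 fold change was -0.73 (SE 0.18, limma adjusted p = 0.125). With the block the standard error was 0.11 and the adjusted p from limma was 0.0447.

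Gm44851 (ENSMUSG00000108436) had the largest increase, 1.44, 0.295 and 2.73 FPKM in the controls and 4.42, 2.64 and 7.55 FPKM after I13. The groups overlapped, since I13 replicate 2 lay below control replicate 3, but the I13 sample was the higher in all 3 pairs of the same number, and both groups had replicate 3 highest and replicate 2 lowest. The I13 mean was 3.27-fold the control mean, on 182 and 587 fragments. The log2 fold change was 1.93 (SE 0.71, limma adjusted p = 0.218), and without control replicate 2 it was 1.13. With the block the standard error was 0.29 and the adjusted p from limma was 0.0447.

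As a group the members showed no common shift that stood clear of the replicates. The log2 fold change was above 0 in 50 members (40.7%) and below 0 in 73, with a median of -0.119. The median was -0.005 over all genes tested, -0.023 over the 198 lincRNAs at the same level and -0.007 over the protein-coding genes at that level. For the 2536 protein-coding genes between 1 and 5 FPKM, the range that holds most members, it was 0.047. By replicate number the members' median difference was 0.027 in pair 1, -0.001 in pair 2 and -0.233 in pair 3, so only pair 3 lay away from 0. Members higher after I13 in 3, 2, 1 and 0 pairs numbered 27, 27, 35 and 34.

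A log2 fold change of at least 0.58 was reached by 13 members (10.6%) upward and 17 (13.8%) downward, against 6.08% and 3.34% of all genes tested. The members' estimates were also less precise, with a median standard error of 0.25 against 0.15 for all genes tested and 0.24 for lincRNAs at the same level. Among those lincRNAs the shares past that size were 8.59% upward and 12.1% downward. The control and I13 values did not overlap in 33 members, 14 (11.4%) with I13 higher and 19 (15.4%) with I13 lower. Over all genes tested these shares were 9.82% and 15.4%, near those of the members, and over the lincRNAs they were 9.09% and 13.1%. Over the protein-coding genes between 1 and 5 FPKM they were 13.2% and 10.9%, with the upward share the larger.

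Behind Gm12279, the members with the largest negative differences among those without overlap included Zfp335os and Sp3os. Like Gm12279, both reached the level of 1 FPKM through the controls alone. Zfp335os, named after the zinc finger gene Zfp335, read 3.06, 2.45 and 1.83 FPKM in the controls and 0.669, 0.937 and 1.03 FPKM after I13. All I13 values were well under all control values, with a log2 fold change of -1.37 (SE 0.26, limma adjusted p = 0.104, blocked 0.0616, blocked voom 0.0248). Sp3os, named after the Sp3 transcription factor gene, read 1.33, 1.40 and 1.53 FPKM in the controls and 0.573, 0.736 and 0.640 FPKM after I13. The samples within each group lay close together and the groups were wide apart, and the log2 fold change was -1.02 (SE 0.22, limma adjusted p = 0.113, blocked 0.0705), on 67 and 30 fragments.

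4 more of the 8 largest negative differences belonged to short or scarce lncRNAs. Gm13748 read 2.84, 3.90 and 2.85 FPKM in the controls and 1.95, 0.631 and 1.66 FPKM after I13, with I13 replicate 2 lowest. Gm16333 read 4.79, 6.42 and 5.35 FPKM in the controls and 1.96, 3.00 and 3.77 FPKM after I13. The log2 fold changes were -1.24 (SE 0.39) for Gm13748 and -0.94 (SE 0.24, limma adjusted p = 0.127, blocked 0.0522, blocked voom 0.0968) for Gm16333, and without I13 replicate 2 that of Gm13748 was -0.78. Gm17112 read 1.70, 2.23 and 1.58 FPKM in the controls and 1.58, 0.967 and 0.793 FPKM after I13. 1700113A16Rik read 1.75, 1.76 and 1.30 FPKM in the controls and 0.829, 1.25 and 0.991 FPKM after I13. In both the nearest samples of the groups were almost level, and the log2 fold changes were -0.71 and -0.60.

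**Figure D2:**
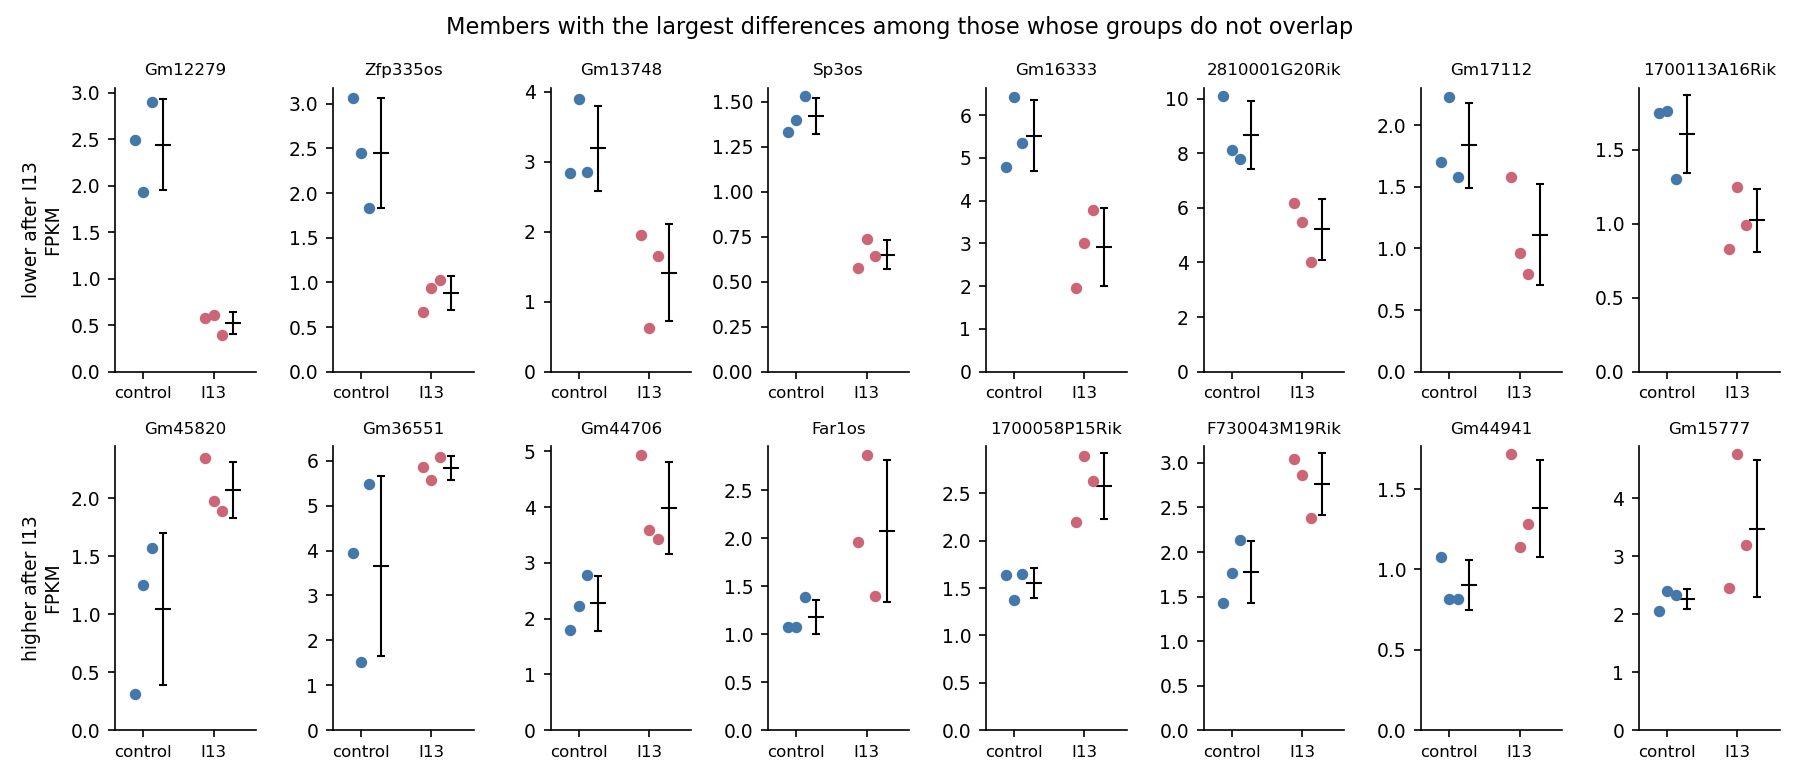
FPKM of each sample (points) with the mean and SD of each group (bars, n = 3) for the 8 members with the largest negative (top) and the 8 with the largest positive (bottom) log2 fold change among those whose groups do not overlap; each axis starts at 0. Gm12279, Zfp335os and Sp3os show wide gaps between the groups, while in Gm17112, Far1os and Gm36551 the nearest control and I13 samples are almost level.

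The largest positive differences without overlap were smaller. Gm45820 read 0.312, 1.25 and 1.57 FPKM in the controls and 2.35, 1.98 and 1.89 FPKM after I13, a log2 fold change of 1.15 (SE 0.50), with control replicate 1 far below the other controls and 0.53 without it. Its values rest on 20 fragments in the controls, 2 of them in replicate 1, and 39 after I13. Gm36551 read 3.95, 1.51 and 5.49 FPKM in the controls and 5.86, 5.57 and 6.09 FPKM after I13. The I13 samples of Gm36551 were almost equal, and the controls spread widely up to their level. The log2 fold change of Gm36551 was 0.84, and 0.32 without control replicate 2. Gm44706 read 1.80, 2.23 and 2.79 FPKM in the controls and 4.94, 3.59 and 3.43 FPKM after I13, with a log2 fold change of 0.79 (SE 0.21, limma adjusted p = 0.137).

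1700058P15Rik read 1.64, 1.37 and 1.65 FPKM in the controls and 2.20, 2.89 and 2.63 FPKM after I13. Every I13 value lay above every control value, on 34 fragments in the controls and 55 after I13. The log2 fold change was 0.69 (SE 0.17, limma adjusted p = 0.123, blocked 0.0843). By voom with the block the standard error was 0.37 and the adjusted p was 0.234. Gm44941 and Gm15777 had log2 fold changes of 0.55 each, both with a standard error of 0.24. The other two of the 8, Far1os and F730043M19Rik, are described with their partner gene and their class below.

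The 10 bidirectional promoter lncRNAs were balanced, with 5 higher and 5 lower after I13 and a median log2 fold change of 0.074, against -0.130 in the 113 antisense members. This difference was not tested. 2810013P06Rik read 6.26, 7.01 and 6.90 FPKM in the controls and 4.51, 4.94 and 4.20 FPKM after I13. Its groups were wide apart on 761 and 504 fragments, and the log2 fold change was -0.55 (SE 0.11, limma adjusted p = 0.109, blocked 0.0524). By voom with the block its adjusted p was 0.0295, and its size stayed under 0.58, so it was not called.

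F730043M19Rik, in the same class, read 1.43, 1.76 and 2.13 FPKM in the controls and 3.04, 2.87 and 2.38 FPKM after I13. The highest control and the lowest I13 sample, both of replicate 3, were close, and the log2 fold change was 0.62 (SE 0.19, limma adjusted p = 0.165). AC123720.1 read 4.33, 3.22 and 3.99 FPKM in the controls and 3.85, 4.46 and 3.17 FPKM after I13, with overlapping groups. Its log2 fold change of -0.01 (SE 0.17) was far smaller than its error, and its sign turned with 2 other scalings, to 0.001 after median-ratio scaling and 0.019 on TPM.

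For 11 members the symbol names the gene they lie antisense to, and 10 of these partner genes were tested. The 11th, the small GTPase gene Rab26, had a mean of 0.0134 FPKM, while Rab26os read 6.70, 5.82 and 3.65 FPKM in the controls and 3.20, 4.68 and 2.07 FPKM after I13. So Rab26os was present with its partner nearly silent, and it was lower after I13 in all 3 pairs (log2 fold change -0.71, SE 0.33 and limma adjusted p = 0.295, blocked SE 0.16 and 0.0715). Of the 10 tested partners, 7 had a higher level than the lncRNA, with Brip1 as one of the exceptions at 3.68 FPKM, below every value of Brip1os given above. The lncRNA and its partner had the same sign in 5 of the 10 pairs. Across these 10 pairs Pearson's r of the log2 fold changes was 0.01, a description only, since the pairs share the 6 libraries and strand was not shown to be separated.

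Far1os and Far1, which encodes a fatty acyl-CoA reductase of ether lipid synthesis, were both higher after I13. Far1os read 1.08, 1.08 and 1.39 FPKM in the controls and 1.96, 2.87 and 1.40 FPKM after I13. Far1 read 11.8, 14.1 and 11.6 FPKM in the controls and 22.4, 25.6 and 15.3 FPKM after I13. In both genes I13 replicate 2 was highest and I13 replicate 3 lowest of the I13 samples, and both had a log2 fold change of 0.72. Far1 was called elevated by the blocked limma fit (adjusted p = 0.0488) and had 0.137 without the block, and Far1os had 0.173 and 0.231.

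Sp3os and Sp3 differed in opposite directions. Sp3 read 19.5, 18.4 and 20.8 FPKM in the controls and 29.4, 24.5 and 24.2 FPKM after I13, with no overlap and a log2 fold change of 0.41 (SE 0.11, limma adjusted p = 0.137, blocked 0.0716). The log2 fold change of Sp3os was -1.02, as given above. Zfp335 differed little, at 6.59, 6.28 and 7.84 FPKM in the controls and 6.05, 6.53 and 6.46 FPKM after I13, a log2 fold change of -0.11 (SE 0.12) beside -1.37 for Zfp335os. Whether the members and their partners differed in their response was not tested.

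The other 7 pairs showed smaller differences. Brip1os and Brip1 had log2 fold changes of 0.26 and 0.40, and Map2k3os and Map2k3, a kinase of the p38 pathway, had -0.32 and -0.23. Arhgap27os3 and Arhgap27 had -0.13 and -0.26. In 4 pairs the lncRNA was higher and the partner lower, with 0.49 and -0.39 for Ttc39aos1 and Ttc39a, 0.53 and -0.22 for Med9os and the Mediator subunit gene Med9, 0.34 and -0.19 for Appbp2os and Appbp2, and 0.50 and -0.14 for Rbm3os and the cold-inducible RNA-binding protein gene Rbm3. Of these 14 genes only Brip1os had an unadjusted p below 0.05.

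**Figure D3:**
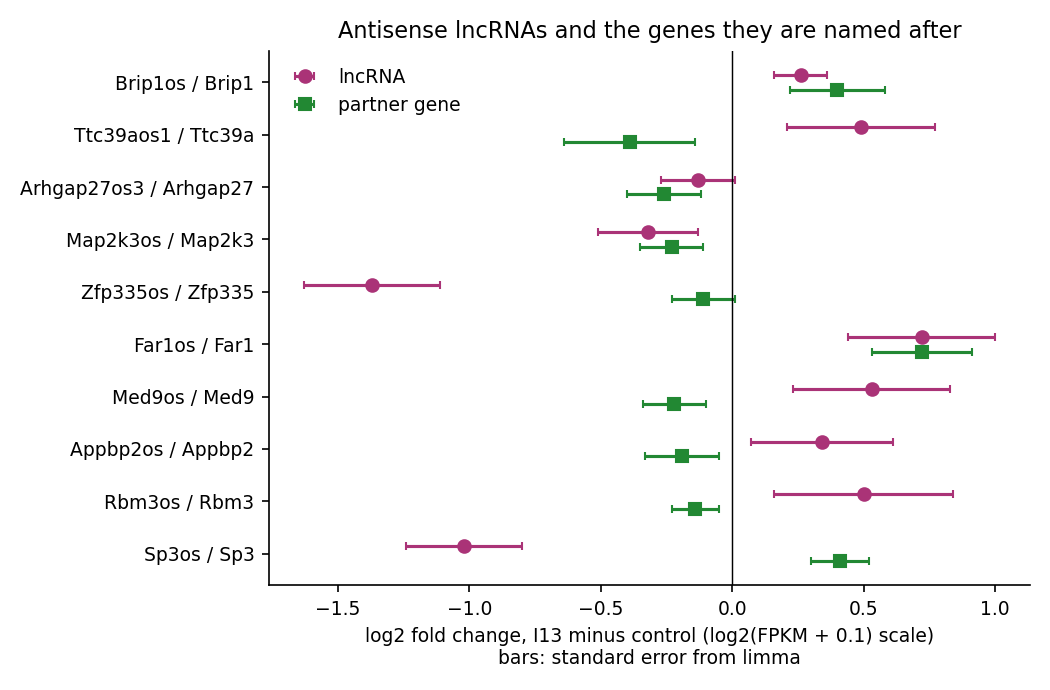
Log2 fold change (I13 minus control, log2(FPKM + 0.1) scale) with its limma standard error for 10 antisense lncRNAs (circles) and the partner genes they are named after (squares). Far1os and Far1 lie together at 0.72, whereas Sp3os and Zfp335os lie at -1.02 and -1.37 with their partners at 0.41 and -0.11.

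In total, more of the variation among the members lay between replicate numbers than between control and I13, but over 2 degrees of freedom against 1. Per degree of freedom the share between conditions was the larger. Of the sum of squares of the members' log2 levels around each gene's mean, 31.4% lay between conditions (1 degree of freedom), 49.1% between replicate numbers (2 degrees of freedom) and 19.5% was left. The shares were 33.9%, 47.3% and 18.8% for lincRNAs at the same level, and 37.0%, 47.4% and 15.6% for protein-coding genes at that level. In the 10 bidirectional promoter lncRNAs they were 51.1%, 24.2% and 24.7%. The squares are summed over genes without weights, so members of wide spread count most. Gm20400, with 87.9% of its own sum between replicate numbers, is the main one. Taken singly, 44 of the 123 members had over 50% of their sum of squares between replicate numbers. The deviations of same-numbered control and I13 samples from their group means correlated across the members at 0.45 for replicate 1, 0.55 for replicate 2 and 0.42 for replicate 3, while pairs of unlike numbers gave -0.34 to -0.14. Correlations are across genes of shared libraries, and deviations within a group sum to 0, which lowers the latter. Members with wide deviations, such as Gm20400 and 4930430E12Rik, weigh most in the members' correlations. How far these rest on such members was not tested.

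Over 80% of the sum of squares lay between replicate numbers in 13 of the 123 members, a count not compared with all genes tested. Of the 123 members, 12 differed by over 2-fold between the highest and lowest replicate mean, a size that 6.93% of all genes tested reached. Gm20400 was the extreme, with 14.3, 0.171 and 2.30 FPKM in the controls and 33.4, 1.26 and 3.78 FPKM after I13. Its mean over the 2 samples of replicate 1 was 33.4-fold that of replicate 2, which rested on only 2 fragments in the control and 14 after I13. The I13 sample was the higher in all 3 pairs, and the log2 fold change of 1.41 had a standard error of 1.60 without the block and 0.31 with it (adjusted p = 0.672 and 0.0674 from limma). It was called only by voom with the block (log2 fold change 1.21, adjusted p = 0.0132), and without control replicate 2 the log2 fold change was -0.07.

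Another 2 members with this pattern were chosen after their values were seen. 4930430E12Rik read 0.547, 0.450 and 4.50 FPKM in the controls and 1.10, 1.05 and 4.98 FPKM after I13, so that replicate 3 was high in both groups. Gm11963 read 6.43, 2.04 and 1.70 FPKM in the controls and 5.22, 1.67 and 0.800 FPKM after I13, so that replicate 1 was high in both groups. Their shares of the sum of squares between replicate numbers were 89.8% and 89.9%. Gt(ROSA)26Sor, the transcript of the Rosa26 locus widely used to place transgenes and also chosen after its values were seen, read 4.56, 6.26 and 5.09 FPKM in the controls and 3.78, 6.23 and 3.57 FPKM after I13. Replicate 2 was the highest of each group in it, and its log2 fold change was -0.26 (SE 0.23).

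**Figure D4:**
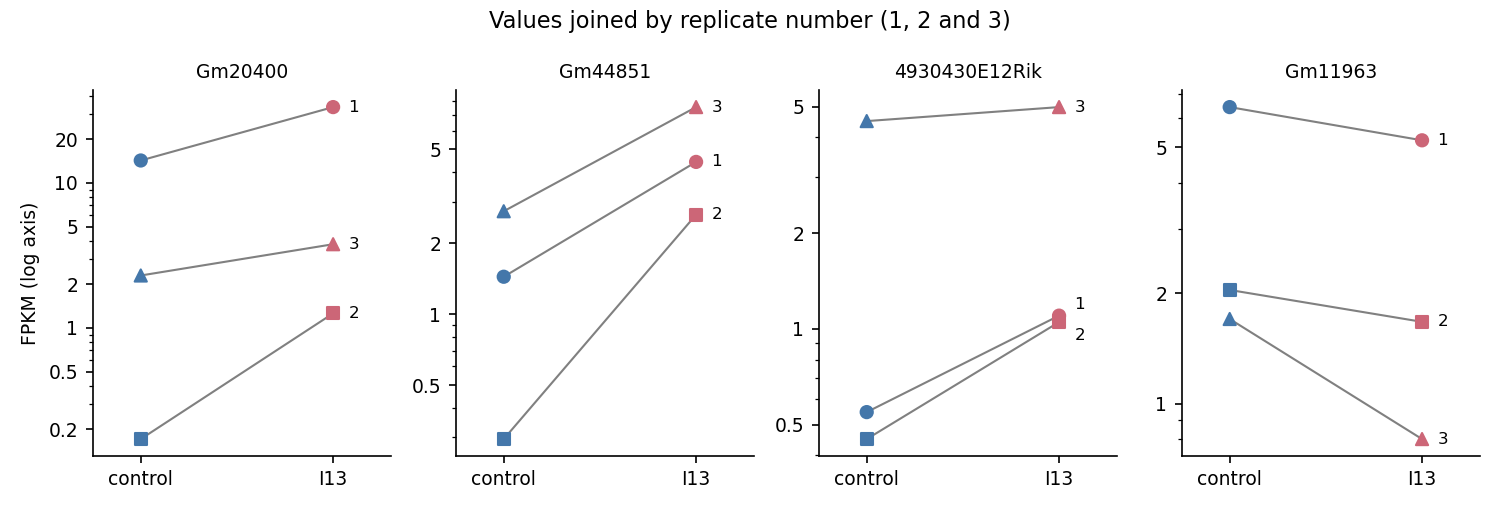
FPKM on a log axis in control (left) and I13 (right) samples, with samples of the same replicate number joined by a line and the number given at the right. In Gm20400, Gm44851, 4930430E12Rik and Gm11963 the order of the replicate numbers is the same in both groups. All lines rise in the first 3 panels and all fall in Gm11963.

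I13 replicate 3 stood apart for the members. Their median deviation from each gene's mean over the 6 samples, on the log2 scale, was -0.178 in I13 replicate 3 and between -0.025 and 0.102 in the other 5 samples. In that library it was -0.135 for lincRNAs at the same level, -0.063 for protein-coding genes at that level and -0.065 for all genes tested. I13 replicate 3 was the lowest of the 6 samples for 43 members (35.0%), against 23.5% of all genes tested, 26.3% of the lincRNAs and 24.5% of the protein-coding genes. Its total of 17506309 fragments was within the range of the other libraries.

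The members' lean to lower values after I13 rested largely on this library. Without I13 replicate 3 the median log2 fold change of the members was 0.012, with 63 members higher and 60 lower (51.2% higher). With any 1 of the other 5 samples left out it was between -0.183 and -0.050, with 36.6% to 46.3% higher. Without I13 replicate 3 the log2 fold change of Gm12279 was -1.85 (limma adjusted p = 0.120) and that of 2810001G20Rik was -0.56 (limma adjusted p = 0.145), the latter under the size needed for a call.

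**Figure D5:**
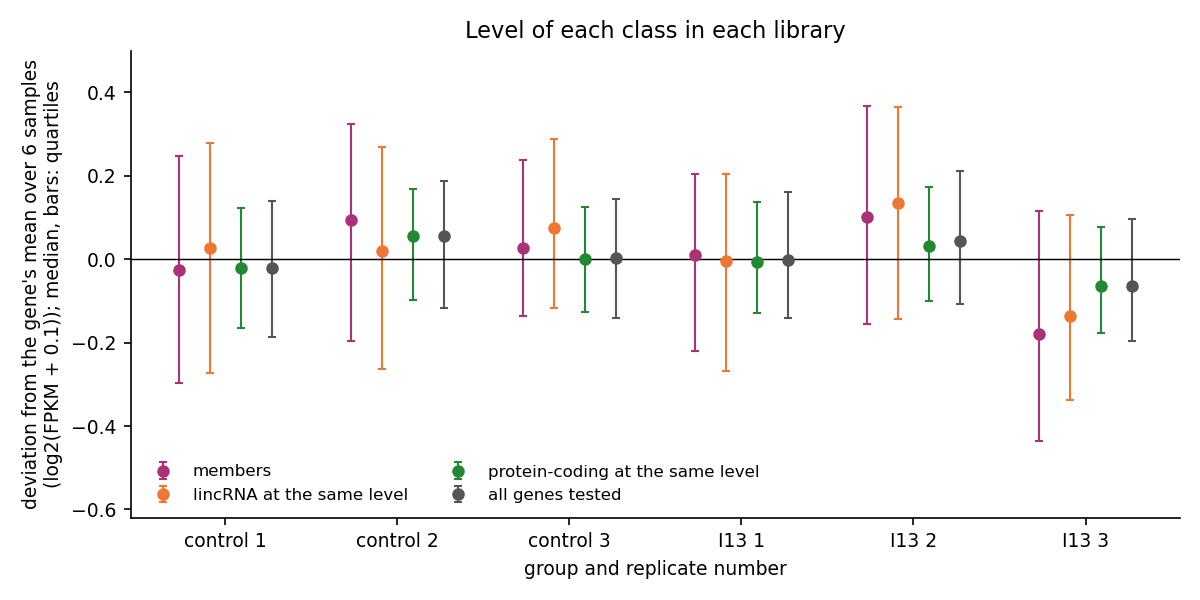
Median (points) and quartiles (bars) of the deviation of log2(FPKM + 0.1) from each gene's mean over the 6 samples, by library, for the members, for lincRNAs and protein-coding genes at or above 1 FPKM, and for all genes tested. In I13 replicate 3 the members' median is -0.178, the lowest of any class and library shown.

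The machinery that ends and degrades such transcripts was read from 4 gene lists in the same limma fit, and 0 genes of any list were called, without or with the block or by voom. Among the 20 tested genes of the nuclear exosome, the main RNA-degrading complex of the nucleus, and its adaptors, 10 were higher and 10 lower after I13, with a median log2 fold change of 0.022, and at an unadjusted p below 0.05 were Zcchc7 (0.48) and Exosc10 (-0.21). Of the 14 tested genes of Integrator, which cuts nascent noncoding transcripts, 6 were higher and 8 lower (median -0.091), and Ints8 (0.33), Ints7 (-0.39) and Ints9 (-0.32) had an unadjusted p below 0.05.

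Of the 18 tested genes of cleavage, polyadenylation and the U1 particle, which protects transcripts from early cleavage, 4 were higher and 14 lower (median -0.102). The 5 at an unadjusted p below 0.05 were all lower, Cpsf1, Nudt21, Cpsf7, Snrpc and Cpsf4. Cpsf1, a subunit of the cleavage and polyadenylation specificity factor, had a mean of 60.0 FPKM in the controls and 43.6 FPKM after I13, a log2 fold change of -0.46 (limma adjusted p = 0.0963, blocked 0.0404) that stayed under the size needed for a call. In nonsense-mediated decay, 3 of the 10 tested genes were higher and 7 lower (median -0.121), with Upf2 (0.51), Upf3b (0.53), Upf3a (-0.31) and Smg5 (-0.26) at an unadjusted p below 0.05. Over all genes tested the median log2 fold change was -0.005, with 7.79% higher and 10.8% lower at that p.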

How the data were processed

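The authors deposited FPKM values per gene for each of the 6 samples, without pooling. The submitters' processing notes name Trimmomatic, HISAT2, Cufflinks and HTSeq without versions or roles, and the labels name human and the build hg38, whereas the gene identifiers are those of mouse, as which they were used. Without a mouse genome, neither coordinates nor sequences are given, and partners were found by symbol only.

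From the deposited FPKM values, fragments and gene lengths were recovered as the whole numbers that give all 6 values (tolerance 0.03 fragments), for 22412 genes and all 123 members. limma 3.58.1 in R 4.3.3 was fitted to log2(FPKM + 0.1) with eBayes and a trend, over the 12163 genes whose mean FPKM reached 0.5, with Benjamini-Hochberg adjustment. The pseudocount makes changes of scarce genes read too small. Calls required an adjusted p below 0.05 together with a log2 fold change of 0.58 or more in size. The fit was tested on simulated data that held no shared difference between replicate numbers, so that test does not bear on the use of the block.

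The replicate numbers in the labels were checked for pairing by correlating deviations from group means. Over all genes tested the correlations of same-numbered samples were 0.15, 0.30 and 0.22, all above 0.1, and those of differently numbered samples -0.26 to 0.05, and control and I13 samples were treated as paired by number in the blocked fits. No source used here says that a number marks a shared culture or day.

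The members and lists were chosen with earlier results of these data known. Named are the members called with or without the block, the 10 of highest level, the 8 largest differences in each direction among those without overlap, the 5 bidirectional promoter lncRNAs of highest level, those with a partner by symbol, and the 3 rows on each side of the level. Well-known lncRNAs were to be named only if they were members, and Kcnq1ot1, Tsix and the values of Gm10371 are extra. Kit and Dntt of the line's markers, and 6 markers of other cells, are not analysed here. Alternatives were other pseudocounts, filters, scalings and eBayes settings, voom on recovered fragments, the replicate block, and each sample left out. Plots used Python 3.11.15 and matplotlib 3.10.9.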

Additional observations from a re-analysis of the deposited data

How the results depend on the processing

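The replicate block changed calls. It gave 1 member elevated and 2 decreased, 31 members at an unadjusted p below 0.05 (18 without it) and 230 genes called over the whole table (5 without it), and voom on recovered fragments with the block gave 2, 3, 20 and 503. With both samples of 1 replicate number left out of the blocked limma fit, chosen after seeing the data, it gave 0 members called in either direction, 17 to 36 at an unadjusted p below 0.05, and 83, 0 and 0 genes called over the whole table without replicate 1, 2 and 3. The median log2 fold change of the members in these fits was -0.152 to 0.027. Without the block, genes called over the whole table numbered 2 after median-ratio scaling, 2 after quantile normalization, 2 at a pseudocount of 0.01, 8 with no filter and 8 with eBayes without a trend, and 0 to 0 with any 1 sample left out, while members called stayed at 0 in each of these. Members without overlap numbered 43 to 50 with 1 sample left out, where fewer samples make overlap less likely, and the median of the members was -0.183 to 0.012. Of 39 single members followed over 17 settings, 6 changed sign in at least 1 setting, all of them uncalled by limma. AC123720.1 was at 0.001 after median-ratio scaling and at 0.019 on TPM. With 1 sample left out, the log2 fold change was -0.130 to 0.115 for AC123720.1, -0.127 to 0.116 for AC112265.1, -0.295 to 0.294 for 4930570N18Rik, -1.216 to 0.066 for Gm11963, -0.004 to 1.683 for 4930430E12Rik and -0.067 to 2.798 for Gm20400. The causes were not tested. No scaling moved the median of all genes tested by over 0.1, and the share of members higher was 38.2% to 43.9% under the other scalings. The few fragments of most members limit what these 6 samples can resolve.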
